A study of Mus musculus with 60 samples.

Results

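Cadherins and protocadherins were followed across the developing mouse brain. The members were the rows of the deposited expression table whose gene name starts with Cdh and a number or with Pcdh, without Cdh5, the cadherin of blood vessels. This rule uses names only and found 93 of 24378 listed genes. They are 5 classical type I cadherins, 12 classical type II cadherins, 5 other cadherins, 4 delta-1, 5 delta-2 and 3 other non-clustered protocadherins, and 15 alpha, 22 beta and 22 gamma rows of the clustered protocadherins, which lie side by side on chromosome 18. Including the clusters, 62 members lie on that chromosome.

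Cadherins are calcium-dependent adhesion proteins that bind the same or a related cadherin on the next cell, and the classical ones are tied through catenins to the actin skeleton. In the neural tube, N-cadherin (Cdh2) holds the neuroepithelium together, while type II cadherins and delta-protocadherins are made in region- and nucleus-specific patterns and take part in cell sorting, axon growth and synapse formation. Clustered protocadherins are chosen in combinations by single neurons and serve as surface labels by which branches of the same neuron recognise and avoid each other.

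The study measured RNA by bulk sequencing in 5 brain regions, namely the ventral midbrain, ventral forebrain, ventral hindbrain, alar plate and dorsal midbrain. Each was sampled at 4 daily embryonic stages, from E11.5 to E14.5, with 3 libraries in each of the 20 groups and 60 in all. Every embryo carried TH-GFP, a fluorescent reporter for cells that make tyrosine hydroxylase, so no group lacks it, and the ventral midbrain pieces comprised floor plate and basal plate. Whether replicate libraries stem from different embryos is not stated in the labels, and p-values therefore reflect only how far these samples spread, which may be technical.

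The smallest library held 979197 reads and the largest 23581725, and depth was lowest at E14.5 and E11.5. Region markers, listed for each region but the alar plate, matched the labels on average. In their own region, 5 of 5 ventral midbrain, 3 of 3 dorsal midbrain and 5 of 5 ventral hindbrain genes were higher. Of the ventral forebrain genes 4 of 5 were. The alar plate label was not checked in this way. Dorsal midbrain genes summed to a mean of 139 RPKM in the alar plate and 191 RPKM in the dorsal midbrain. At E11.5 the highest sum of the ventral midbrain genes, 219.5 RPKM, was in a ventral forebrain library. Single libraries stood apart, however, and 14 of the 60 correlated better with another region of their stage than with their own group. These were 7 alar plate libraries (3 at E11.5, 3 at E12.5, 1 at E14.5), 3 ventral forebrain, 2 dorsal midbrain, 1 ventral hindbrain and 1 ventral midbrain library, and none was from E13.5. The library names of a stage share a prefix at E12.5 and at E13.5. At E12.5 this prefix names the stage, elsewhere it is a code, and whether it marks a sequencing run is not known here. The dorsal midbrain of E11.5 carried another prefix than its stage, and the 2 midbrain regions of E14.5 shared one that the other 3 lacked. Effects of stage and of any batch that goes with the prefixes cannot be told apart.

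Levels are RPKM, reads per kilobase of transcript and per 1000000 assigned reads. Of the 93 members, 86 reached a mean of 1 RPKM in at least 1 group and were tested. The 7 that did not were Cdh15, Cdh16, Cdh17, Cdh19, Cdh26, Pcdhb1 and Pcdhb13. Cdh15, the cadherin of muscle precursors, had a highest group mean of 0.622 RPKM, and Cdh19, a cadherin of neural crest and Schwann cells, of 0.126 RPKM. The alpha rows share their last exons with each other, and so do the gamma rows, so reads in those exons were listed under each row and the rows cannot be counted as separate genes. Counts of members below are therefore over the 56 that share no exons in this way (34 non-clustered and 22 beta), of which 49 were tested, and the clusters are described on their own. A member was called when limma's Benjamini-Hochberg adjusted p over all 14692 tested genes was below 0.05 and the log2 difference was at least 1 in size. Differences are on the scale of log2(RPKM + 1), which understates those of low genes, and are given with their standard error.

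Cdh2 was high in each region. Its 12 libraries ran from 84.0 to 112 RPKM in the ventral midbrain, with a median of 97.3 RPKM, and its regional medians elsewhere were 92.6 RPKM in the ventral hindbrain, 92.5 RPKM in the ventral forebrain, 88.5 RPKM in the alar plate and 87.6 RPKM in the dorsal midbrain. The ranges of the 5 regions overlapped. Around this level the other members differed by region. Averaged over the stages, the ventral hindbrain had the highest level for 30 of the 49 tested members, the ventral midbrain for 11, the alar plate and ventral forebrain for 3 each and the dorsal midbrain for 2. Of all tested genes, 21% were highest in the ventral hindbrain, 15.3% in the ventral midbrain, 11.7% in the alar plate, 13.4% in the ventral forebrain and 38.7% in the dorsal midbrain. The dorsal midbrain had the lowest level for 36 of the 49, and for 32.7% of all tested genes. The 20 tested beta protocadherins, neighbours in a cluster, were all among these 36. All of them but Pcdhb4 and Pcdhb12 were among the 30 highest in the ventral hindbrain. The map of regional levels shows these group values for the tested non-clustered members.

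**Figure D1:**
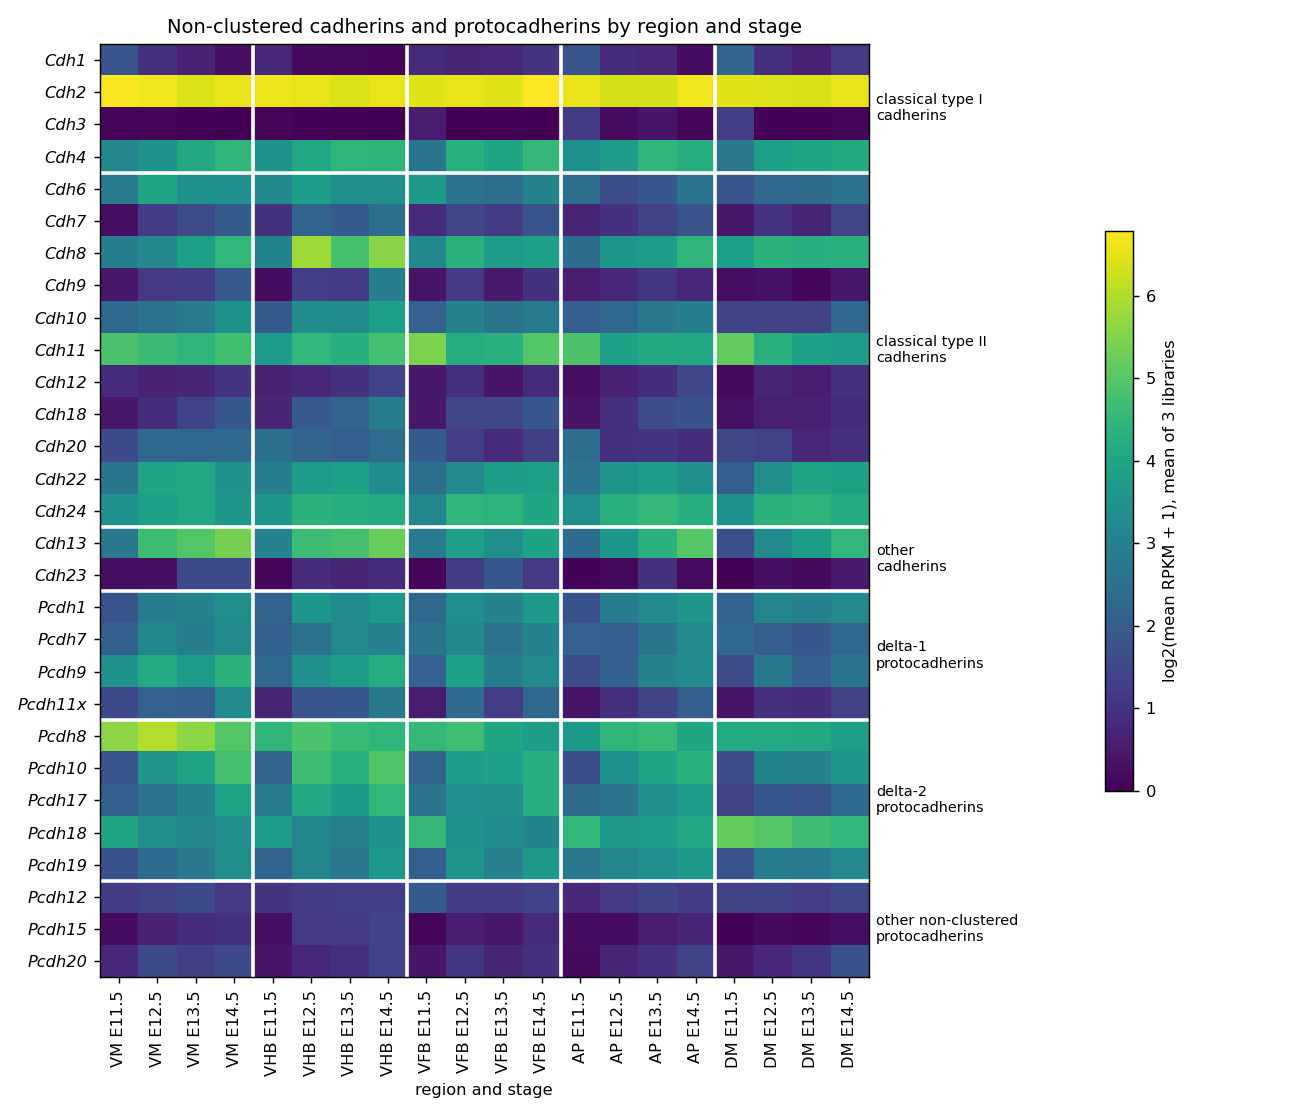
Levels of the 29 tested non-clustered cadherins and protocadherins (rows, by subfamily) in the 20 groups (columns: VM ventral midbrain, VHB ventral hindbrain, VFB ventral forebrain, AP alar plate, DM dorsal midbrain, each from E11.5 to E14.5), as log2 of the mean RPKM of 3 libraries plus 1, from dark (0) to bright. Cdh2 is bright in each column, Pcdh8 is brightest in the ventral midbrain, Pcdh18 in the dorsal midbrain and Cdh8 in the ventral hindbrain at E12.5.

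In the ventral midbrain, Pcdh8 and Pcdh9 were higher than the mean of the 4 other regions over the stages. They were the 2 called members of 49, while 1.72% of all tested genes were called in either direction, 1.31% higher and 0.408% lower. Pcdh8, a delta-2 protocadherin also known as paraxial protocadherin, had 65.9, 21.3 and 56.8 RPKM in the ventral midbrain at E11.5, 64.8, 62.9 and 60.9 RPKM at E12.5, 46.2, 46.0 and 54.9 RPKM at E13.5 and 27.5, 30.2 and 32.6 RPKM at E14.5. Among the 48 libraries of the other regions, the highest was 32.4 RPKM, in a ventral forebrain library of E11.5. At E12.5, E13.5 and E14.5 each ventral midbrain library lay above every library of the other regions at its stage. At E11.5 a single ventral midbrain library, replicate 4, fell among the others, and it is the ventral midbrain library that matched another region better. Pcdh8 averaged 47.5 RPKM in the ventral midbrain and 18.8 RPKM in the other regions, a log2 difference of 1.29 ± 0.14 (adjusted p = 1.19e-09).

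Pcdh9, a delta-1 protocadherin with a very long gene, had 12.2, 5.34 and 12.7 RPKM in the ventral midbrain at E11.5, 16.5, 16.8 and 17.0 RPKM at E12.5, 14.04, 11.2 and 12.52 RPKM at E13.5 and 19.4, 19.2 and 19.6 RPKM at E14.5. By the mean over the stages its nearest neighbour was the ventral hindbrain. Pcdh9 had 18.6, 8.92 and 10.6 RPKM there at E13.5 and 21.6, 14.7 and 16.2 RPKM at E14.5. These hindbrain values overlapped those of the ventral midbrain at both stages. At E12.5 the highest library, at 17.8 RPKM, was from a region other than the ventral midbrain. Set against its 4 other regions at that stage, the ventral forebrain differed by 0.80 and the ventral hindbrain by 0.23. Over the stages Pcdh9 averaged 14.7 RPKM in the ventral midbrain and 7.03 RPKM in the other regions (log2 difference 1.16 ± 0.13, adjusted p = 4.65e-09). With E12.5 and E13.5 alone, where all regions of a stage share a name prefix, the difference was 1.40 for Pcdh8 and 1.03 for Pcdh9, both called. With E13.5 alone, the stage without a mismatched library, the difference was 0.89 for Pcdh9 and was not called, and 1.32 for Pcdh8, which was.

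Without the limit on size, 13 of the 49 members were higher and 4 lower in the ventral midbrain at an adjusted p below 0.05, against 15.8% and 18.4% of all tested genes. The median member differed by 0.09 and the median gene by -0.02. Members with the next largest differences were Pcdh11x (0.88), the X-linked delta-1 protocadherin, the type II cadherin Cdh6 (0.78), Cdh13 (0.76), the T-cadherin that is anchored by a lipid and has no cytoplasmic tail, and the type II cadherin Cdh20 (0.62). On the lower side were Pcdh18 (-0.47) and Cdh8 (-0.46), both uncalled. On the mm10 build Pcdh8 spans 79766775 to 79771312 and Pcdh9 93013410 to 93890679, both on the minus strand of chromosome 14, which also holds Pcdh17 (84443563 to 84539002, plus strand). Exons of Pcdh8 overlap a gene on the other strand, Gm9748, and the strand used in counting is not given in the sources used here, so reads of the pair cannot be told apart. Marker lists of other cell types had median differences of 0.09 (endothelium), -0.73 (mesenchyme) and 0.27 (microglia) in this comparison, and 2 of 8 neuronal genes were called higher. Their part in the results was not tested. In bulk tissue, fewer cells of a type and less RNA per cell cannot be told apart.

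**Figure D2:**
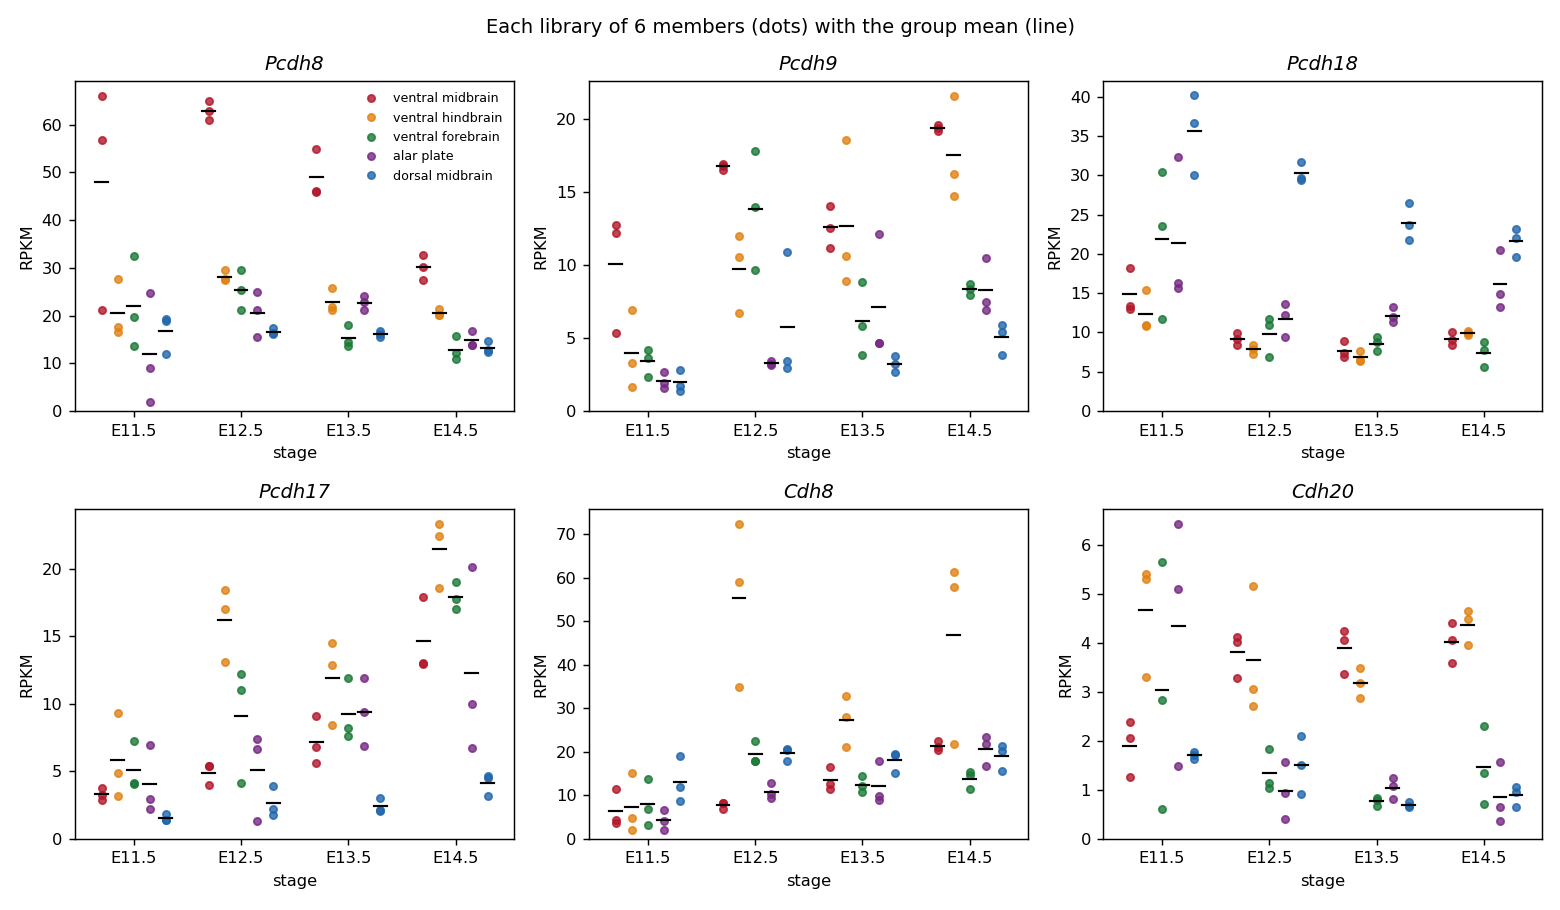
RPKM of Pcdh8, Pcdh9, Pcdh18, Pcdh17, Cdh8 and Cdh20 (panels) in each of the 60 libraries (dots, coloured by region) at 4 stages, with lines at the mean of 3 libraries. Pcdh8 reaches 65.9 RPKM in the ventral midbrain, Pcdh18 lies between 19.6 and 40.3 RPKM in the dorsal midbrain, and Cdh8 reaches 72.3 RPKM in the ventral hindbrain at E12.5.

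Ventral and dorsal midbrain lie at the same level of the brain's long axis and share a name prefix within E12.5, E13.5 and E14.5. Between them 8 of the 49 tested members were called, 7 higher and 1 lower in the ventral midbrain, while 7.13% of all tested genes were called, 4.13% higher and 3% lower. The 7 were the delta-1 protocadherins Pcdh9 and Pcdh11x, the delta-2 protocadherins Pcdh8 and Pcdh17, the type II cadherins Cdh6 and Cdh10, and Cdh13. Each of the 8 differed in the same direction at all 4 stages. Pcdh9 showed the largest difference among members, 1.72 ± 0.17 (adjusted p = 2.68e-11), with 14.7 RPKM in the ventral midbrain and 1.40, 2.85 and 1.71 RPKM at E11.5, 2.94, 3.44 and 10.9 RPKM at E12.5, 3.79, 3.19 and 2.67 RPKM at E13.5 and 5.45, 5.92 and 3.82 RPKM at E14.5 in the dorsal midbrain. The value of 10.9 RPKM stands apart from its group and belongs to replicate 3 of E12.5, a library that matched another region better. Even with it, the libraries of the ventral midbrain lay above those of the dorsal midbrain at each stage.

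Pcdh8 followed with a log2 difference of 1.47 ± 0.18 and Pcdh11x with 1.35 ± 0.15. Pcdh11x had 1.53 to 10.8 RPKM (median 3.21) in the 12 ventral midbrain libraries and 0.174 to 2.35 RPKM (median 0.828) in the 12 of the dorsal midbrain, which overlapped across stages. Cdh6, once described as K-cadherin, differed by 1.19 ± 0.20, Cdh10 by 1.19 ± 0.12 and Cdh13 by 1.18 ± 0.23. Cdh6 had 2.63 to 16.4 RPKM (median 9.69) in the ventral midbrain and 1.195 to 7.27 RPKM (median 3.68) in the dorsal midbrain. Cdh13 had 4.83 to 45.1 RPKM (median 28.2) in the ventral midbrain and 0.970 to 24.1 RPKM (median 11.4) in the dorsal midbrain, so that both overlapped as well. Pcdh17, which takes part in axon growth and in the assembly of synapses in the basal ganglia, differed by 1.09 ± 0.18, and with E12.5 and E13.5 alone its difference of 0.99 was under the limit. Cdh20 differed by 0.996 and was just outside it. Without the size limit, 34 members were higher and 3 lower in the ventral midbrain, against 25.8% and 32% of all tested genes, and the median member differed by 0.32 where the median gene differed by -0.04. Of the 20 tested beta protocadherins, 16 were higher at an adjusted p below 0.05, and none reached a log2 difference of 1.

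Pcdh18, a delta-2 protocadherin, went the other way. It had 13.4, 18.3 and 13.0 RPKM in the ventral midbrain against 30.0, 40.3 and 36.6 RPKM in the dorsal midbrain at E11.5, and 9.0, 8.39 and 10.02 RPKM against 19.6, 22.0 and 23.2 RPKM at E14.5. Over all 4 stages the highest ventral midbrain library, at 18.3 RPKM, lay below the lowest dorsal midbrain library, at 19.6 RPKM. The log2 difference over the stages was -1.38 ± 0.11 (adjusted p = 4.80e-14). In a fit without the 14 libraries that matched another region better, 3 of them from the midbrain, the same 8 members were called together with Cdh20 (1.09). Pcdh9 then differed by 1.95, Pcdh8 by 1.59 and Pcdh18 by -1.44. With E12.5 and E13.5 alone, where all regions of a stage share a name prefix, the differences were 1.64 for Pcdh9, 1.70 for Pcdh8 and -1.57 for Pcdh18.

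Cell type markers moved with this comparison. Mesenchymal genes, such as those of the meninges, summed to 5.48 to 360 RPKM (mean 52.1) in the ventral midbrain and 10.97 to 317 RPKM (mean 131) in the dorsal midbrain, and 5 of 8 were called lower in the ventral midbrain. Neuronal genes summed to 1886 to 2902 RPKM (mean 2493) in the ventral midbrain and 949 to 2410 RPKM (mean 1837) in the dorsal midbrain, with 2 of 8 called higher. Of 8 progenitor genes 1 was called higher and 4 lower. Their part in the differences of the cadherins was not tested.

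**Figure D3:**
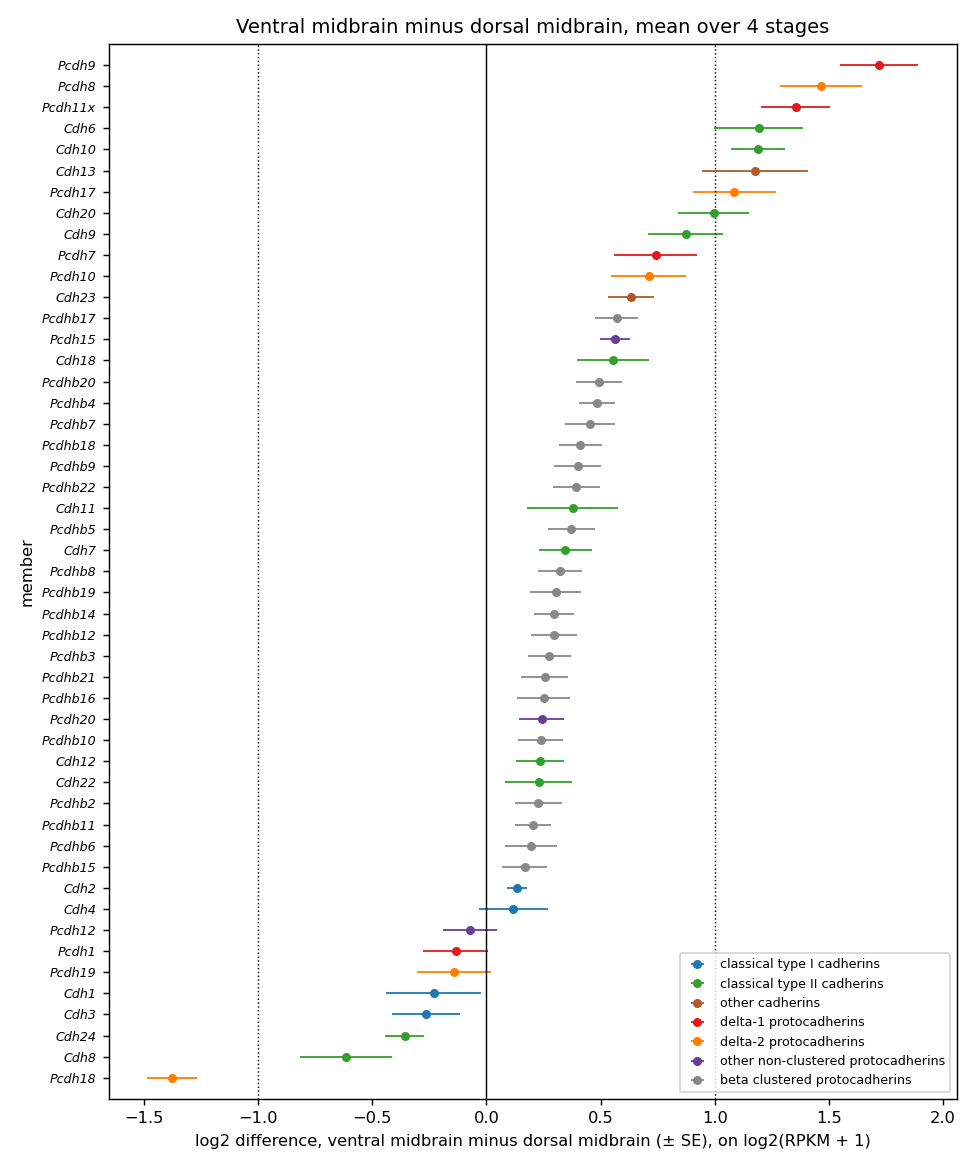
Log2 difference between ventral and dorsal midbrain, on the log2(RPKM + 1) scale and averaged over 4 stages, for each tested member without shared exons (dots coloured by subfamily, with bars of 1 standard error), with dotted lines at -1 and 1. Pcdh9 is at the high end (1.72), Pcdh18 at the low end (-1.38), and the points of most members lie above 0.

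The sequences just upstream of the genes called higher over the stages in the ventral midbrain or in the dorsal midbrain are shown so that they can be set beside the levels above. They are the 250 bases before the RefSeq start of Pcdh8 (chr14:79771313-79771562), Pcdh9 (chr14:93890680-93890929, the first of 2 listed starts) and Pcdh18 (chr3:49757317-49757566). All are on the minus strand of GRCm38.p6, which is mm10, and are written 5′ to 3′ with capitals at motif matches on either strand.
Pcdh8: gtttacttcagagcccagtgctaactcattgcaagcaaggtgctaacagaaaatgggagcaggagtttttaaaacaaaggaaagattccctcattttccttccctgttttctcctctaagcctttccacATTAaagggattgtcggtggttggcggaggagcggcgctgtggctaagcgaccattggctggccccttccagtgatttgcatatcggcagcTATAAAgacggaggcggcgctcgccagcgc
Pcdh9: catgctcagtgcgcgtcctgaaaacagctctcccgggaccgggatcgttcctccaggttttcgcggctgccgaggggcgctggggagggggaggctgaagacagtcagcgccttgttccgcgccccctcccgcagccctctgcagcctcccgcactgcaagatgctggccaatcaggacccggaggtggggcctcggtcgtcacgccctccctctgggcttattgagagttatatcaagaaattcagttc
Pcdh18: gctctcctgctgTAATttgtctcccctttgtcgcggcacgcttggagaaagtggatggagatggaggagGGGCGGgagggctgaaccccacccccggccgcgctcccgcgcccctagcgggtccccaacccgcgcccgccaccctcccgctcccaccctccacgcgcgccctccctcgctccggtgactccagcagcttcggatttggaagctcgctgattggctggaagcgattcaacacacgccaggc

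A search was made for 5 short motifs: ATTA, the core of homeodomain sites, TGTTTAC of forkhead factors, the E-box CANNTG, the TATA box TATAAA and the GC box CCGCCC. Among all 32851 windows of this length, ATTA occurred in 54.9%, CANNTG in 66.2%, CCGCCC in 32.7%, TATAAA in 12.4% and TGTTTAC in 3.17%. The Pcdh8 window held 1 TATAAA at position -30 and 1 ATTA at -121 from the start. The Pcdh18 window held 1 ATTA at -238 and 1 CCGCCC at -181, and the Pcdh9 window held none of the 5. The GC content was 51.2% for Pcdh8, 63.6% for Pcdh9 and 68% for Pcdh18, with a median of 52.4% over all windows. A match describes these letters and not a bound site.

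The dorsal midbrain set against the mean of the 4 other regions had 1 member higher and 2 lower of 49, while 4.51% of all tested genes were called, 2.21% higher and 2.31% lower. Pcdh18 was the higher one, with 19.6 to 40.3 RPKM (median 27.9) in the dorsal midbrain, and medians of 13.4 RPKM in the alar plate and of 9.06 to 9.09 RPKM in the 3 ventral regions. At E11.5 an alar plate library (32.3 RPKM) and a ventral forebrain library (30.4 RPKM) reached into the range of the dorsal midbrain, as did an alar plate library at E14.5 (20.52 RPKM), and at E12.5 and E13.5 no library of these regions did. The log2 difference was 1.25 ± 0.09 (adjusted p = 1.46e-15).

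Pcdh17 and Cdh10 were the lower ones. Pcdh17 had 1.41, 1.39 and 1.81 RPKM in the dorsal midbrain at E11.5, 1.79, 2.20 and 3.92 RPKM at E12.5, 3.05, 2.06 and 2.10 RPKM at E13.5 and 4.68, 4.53 and 3.20 RPKM at E14.5. The ventral hindbrain had up to 23.3 RPKM of Pcdh17, the alar plate up to 20.1, the ventral forebrain up to 19.0 and the ventral midbrain up to 17.9 RPKM. At E11.5, E13.5 and E14.5 the dorsal midbrain lay below every other library, and at E12.5 an alar plate library, at 1.31 RPKM, lay lower. The means over the stages were 2.68 RPKM in the dorsal midbrain and 9.85 RPKM in the other regions (log2 difference -1.40 ± 0.14, adjusted p = 5.61e-11). Cdh10, a type II cadherin of neurons, averaged 2.10 RPKM in the dorsal midbrain and 6.22 RPKM elsewhere (-1.16 ± 0.09, adjusted p = 1.96e-13). With E12.5 and E13.5 alone the differences were 1.48 for Pcdh18, -1.42 for Pcdh17 and -1.44 for Cdh10. At any size, 35 of the 49 members were lower in the dorsal midbrain and 2 higher, against 27.4% and 33.7% of all tested genes, with a median of -0.32 among members and 0.03 among genes. These 35 included 7 of 11 type II cadherins, 3 of 4 delta-1 protocadherins and 18 of 20 beta protocadherins, but 1 of 4 type I cadherins. In the same comparison 5 of 8 mesenchymal genes and 4 of 8 progenitor genes were called higher, and their part was not tested.

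In the ventral hindbrain many members were higher by small amounts. None of the 49 members was called by limma, against 1.57% of all tested genes, though 34 had an unadjusted p below 0.05 and limma-voom on recovered reads called 6. Of all tested genes, 49.8% had an unadjusted p below 0.05 and limma-voom called 5.02%. At an adjusted p below 0.05 and any size, 29 were higher and 2 lower, against 19.9% and 22.3% of all tested genes, and the median member differed by 0.27 where the median gene differed by -0.02. Type II cadherins made up 8 of the 29, out of 11 tested: Cdh8 (0.94), Cdh18 (0.88), Cdh20 (0.85), Cdh7 (0.75), Cdh10 (0.74) and Cdh6 (0.73) were the largest of them. Among delta-2 protocadherins, Pcdh17 differed by 0.99 and Pcdh10 by 0.75. Most of the 20 tested beta protocadherins were also among the 29. Of 8 mesenchymal genes 5 were called lower in the ventral hindbrain, where their sum was 7.19 to 18.8 RPKM, and their part was not tested.

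Cdh8 had 2.04, 4.71 and 15.2 RPKM in the ventral hindbrain at E11.5, 34.9, 58.9 and 72.3 RPKM at E12.5, 28.0, 32.9 and 21.1 RPKM at E13.5 and 21.7, 61.2 and 57.8 RPKM at E14.5. At E12.5 the libraries of the other regions ran from 6.94 to 22.5 RPKM and did not overlap those of the hindbrain, while the spread among hindbrain libraries themselves was wide at E11.5 and E14.5. Without E11.5, Cdh8 differed by 1.34 ± 0.12 (adjusted p = 1.17e-10), Pcdh17 by 1.11 and Cdh18 by 1.07, and these 3 were called. Cdh8 lies at 99024471 to 99416471 on the minus strand of chromosome 8, with an overlapping gene on the other strand, Gm15679.

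In the ventral forebrain and the alar plate, limma called none of the 49 members. The background was 0.776% of all tested genes for the ventral forebrain and 0.619% for the alar plate. At any size, 2 members were higher and 3 lower in the ventral forebrain, against 4.57% and 4.36% of all tested genes, and 1 higher and 8 lower in the alar plate, against 3.81% and 7.71%. In the ventral forebrain 7 members had an unadjusted p below 0.05, against 20.5% of all tested genes, and limma-voom called 1, against 1.74%. It was Cdh23, which forms part of the tip links of hair cells. In the alar plate 11 had an unadjusted p below 0.05, against 25.4% of all tested genes, and limma-voom called 2, Cdh23 and Cdh6, against 1.78%. Cdh6 differed by -0.93 in the alar plate (adjusted p = 3.45e-05) and Pcdh9 by -0.67. Without E11.5, Cdh6 differed by -1.07 in the alar plate, and with E13.5 alone by -1.06, and was called in both. The 6 alar plate libraries of E11.5 and E12.5 all matched another region better.

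Many cadherins and protocadherins were higher at E14.5 than at E11.5. Averaged over the 5 regions, 21 of the 49 members were called, each of them higher at E14.5, while 14.2% of all tested genes were called, 8.15% higher and 6.05% lower. The median member was 0.93 higher at E14.5, where the median gene differed by -0.06. At any size 40 members were higher and 4 lower at an adjusted p below 0.05, against 34.9% and 41.3% of all tested genes. In each of the 5 regions taken alone, 39 of the 49 had a higher mean at E14.5 than at E11.5, as did 27% of all tested genes.

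Pcdh10, a delta-2 protocadherin needed for the growth of striatal axons, rose most among members. Its 15 libraries ran from 6.81 to 32.1 RPKM at E14.5 with a median of 19.6 RPKM, against 0.708 to 5.27 RPKM at E11.5 with a median of 2.18 RPKM, and the stages did not overlap (log2 difference 2.57 ± 0.15, adjusted p = 1.5e-19). Cdh13 had 13.7 to 45.1 RPKM (median 30.2) at E14.5 against 0.970 to 9.53 RPKM (median 5.43) at E11.5, again without overlap, and differed by 2.38 ± 0.21. Cdh8 had 11.4 to 61.2 RPKM at E14.5 and 2.02 to 19.0 RPKM at E11.5 and differed by 1.61, with overlapping libraries. Pcdh1, a delta-1 protocadherin, had 7.51 to 14.9 RPKM at E14.5 and 1.36 to 5.10 RPKM at E11.5, which did not overlap, and differed by 1.5. Exons of Pcdh10, Cdh8 and Pcdh19 overlap genes on the other strand.

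By subfamily, the risers were 5 of 11 type II cadherins (Cdh8, Cdh18, Cdh7, Cdh10 and Cdh22), 3 of 4 delta-1 protocadherins (Pcdh11x, Pcdh1 and Pcdh9) and 3 of 5 delta-2 protocadherins (Pcdh10, Pcdh17 and Pcdh19, in humans the gene of a female-limited epilepsy). Of the type I cadherins Cdh4, the R-cadherin of retina and brain, was called (1.33), with 12.9 to 29.9 RPKM at E14.5 and 2.92 to 13.2 RPKM at E11.5. Of the 20 tested beta protocadherins 8 were called, from 1.03 for the lowest to 1.55 for Pcdhb7, which averaged 4.79 RPKM at E14.5 and 0.995 RPKM at E11.5. Cdh2 was uncalled, with a mean of 97.7 RPKM at E14.5 and 93.04 RPKM at E11.5 and a log2 difference of 0.07.

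Pcdh18 and 3 cadherins had lower values at E14.5 without being called on the log2(RPKM + 1) scale. Cdh1, the E-cadherin of epithelia, differed by -0.90, Pcdh18 by -0.66, Cdh3, the P-cadherin, by -0.48 and Cdh20 by -0.35. Of these, Cdh1 and Cdh3 were called lower by limma-voom on recovered reads. Both were also called lower with 0.1 in place of 1 added to RPKM. Cdh3 was low at both stages, with means of 0.0333 RPKM at E14.5 and 0.649 RPKM at E11.5. Cdh1 was listed at up to 5.56 RPKM at E11.5, where a dorsal midbrain group had 1.38, 4.03 and 5.56 RPKM, and had a median of 0.149 RPKM at E14.5. Surface epithelium genes moved with it, their sum being 0.173 to 2.57 RPKM at E14.5 and 0 to 17.8 RPKM at E11.5, and their part in the levels of Cdh1 was not tested.

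Much of the difference from E11.5 was already present at E12.5. The stage means from E11.5 to E14.5 were 2.72, 12.9, 13.8 and 21.0 RPKM for Pcdh10, 4.99, 16.2, 19.6 and 28.8 RPKM for Cdh13, 7.83, 22.6, 16.7 and 24.4 RPKM for Cdh8 and 3.96, 7.59, 8.02 and 14.1 RPKM for Pcdh17. Pcdh18 had 21.2, 13.8, 11.8 and 12.9 RPKM and Pcdh8 23.9, 30.7, 25.2 and 18.3 RPKM. With E12.5 in place of E11.5, limma called none of the 49 members, against 0.858% of all tested genes, though 33 had an unadjusted p below 0.05, as did 53.6% of all tested genes, and no other tool was run on this pair of stages. At an adjusted p below 0.05 and any size 29 were higher and 2 lower at E14.5, against 23.3% and 24.7% of all tested genes, with a median of 0.26 and a range from -0.63 for Pcdh8 to 0.96 for Cdh13. In each of the 5 regions, 20 of the 49 then had a higher mean at E14.5, as did 17.7% of all tested genes.

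Cell type markers moved with stage. Progenitor genes summed to 712 to 1472 RPKM at E14.5 and 1467 to 2332 RPKM at E11.5, with 6 of 8 called lower. Neuronal genes summed to 1967 to 2902 RPKM at E14.5 and 349 to 2902 RPKM at E11.5, with 3 of 8 called higher and 1 lower. Genes of red blood cells summed to 267 to 980 RPKM at E14.5 and 1982 to 21390 RPKM at E11.5. Their part in the rise of the cadherins and protocadherins was not tested.

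**Figure D4:**
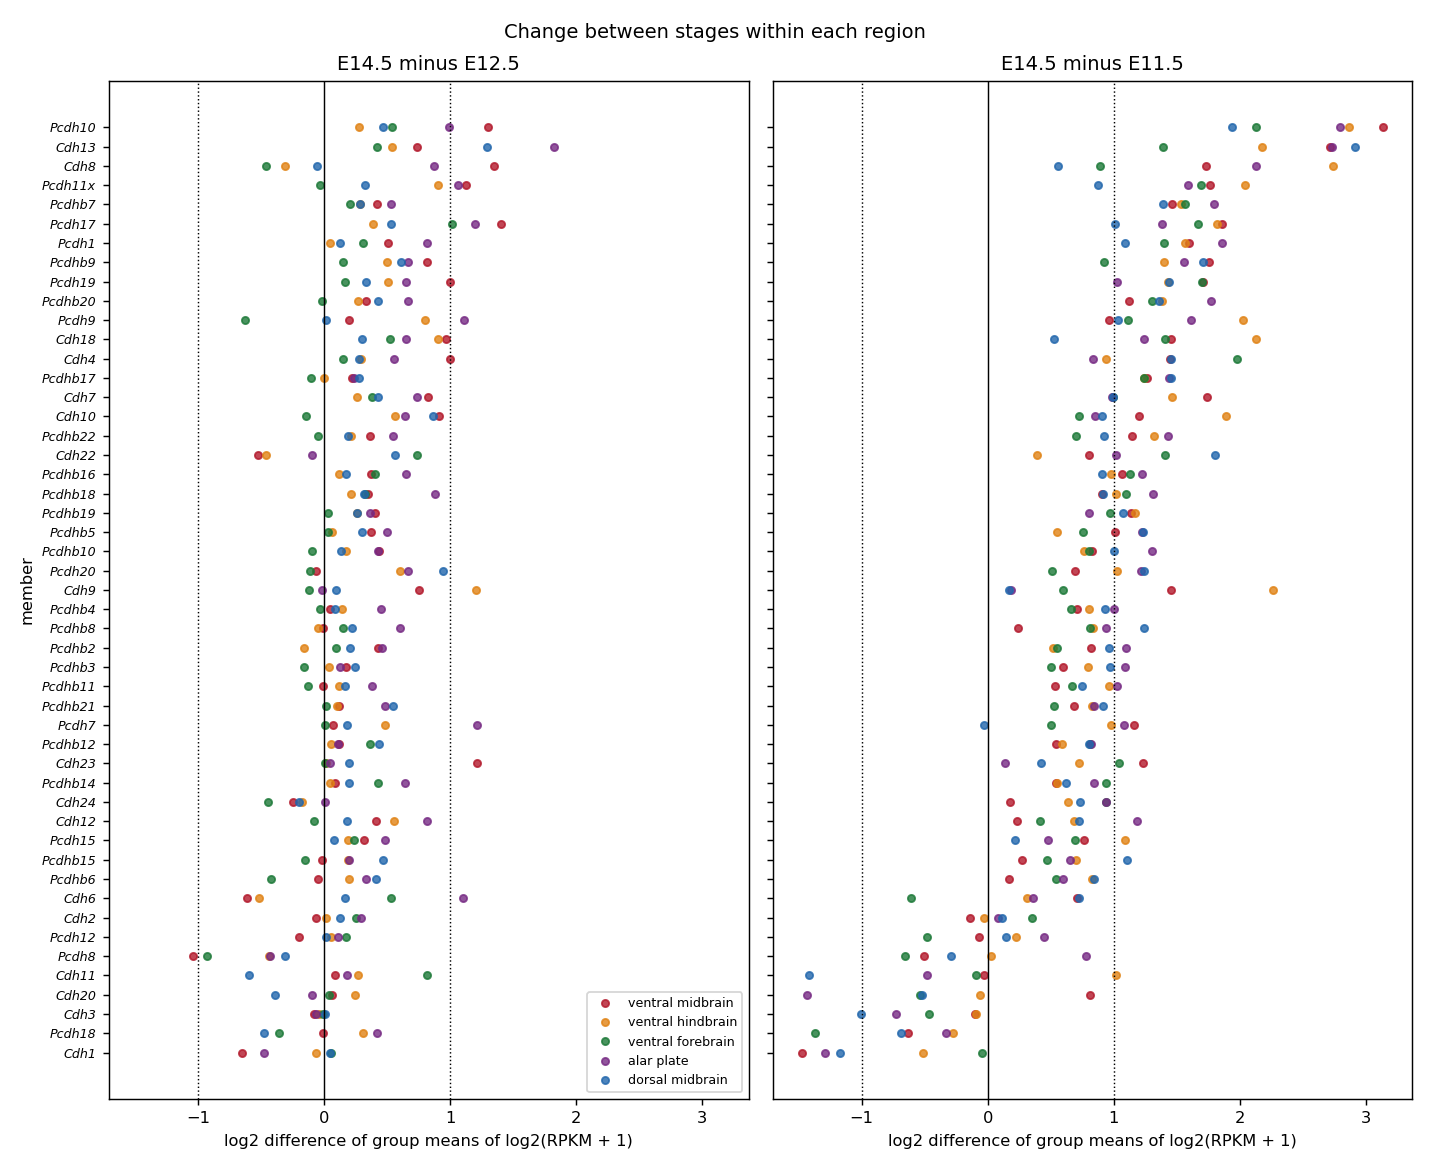
Log2 difference of group means of log2(RPKM + 1) between E14.5 and E12.5 (left) and between E14.5 and E11.5 (right) within each region (coloured dots), for the 49 tested members without shared exons (rows, by their mean difference from E11.5), with dotted lines at -1 and 1. In the right panel 39 members lie above 0 in all 5 regions, from Pcdh10 down, and in the left panel 20 do.

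The change with stage was called different between the ventral midbrain and the other regions for 1 of 49 members, Cdh20. This share is near that of all tested genes, of which 2.02% were called and 1.44% were called higher. Without the limit on size, Cdh24 also differed (-0.63 ± 0.19, adjusted p = 0.041). Cdh20 had 2.05, 1.26 and 2.38 RPKM in the ventral midbrain at E11.5, 4.01, 4.11 and 3.29 RPKM at E12.5, 3.37, 4.05 and 4.23 RPKM at E13.5 and 4.05, 3.58 and 4.39 RPKM at E14.5. In the alar plate it had 0.365 to 1.56 RPKM at E14.5 and 6.43, 1.49 and 5.10 RPKM at E11.5. The difference between E14.5 and E11.5 was 0.81 in the ventral midbrain, against -0.06 in the ventral hindbrain, -0.52 in the dorsal midbrain, -0.54 in the ventral forebrain and -1.43 in the alar plate. Set against the mean of these 4, the ventral midbrain's change was larger by 1.44 ± 0.35 (adjusted p = 0.0094). This call was lost without ventral midbrain replicate 4 of E11.5 (1.27 ± 0.38, adjusted p = 0.0551). With E12.5 in place of E11.5 the difference was 0.11 (adjusted p = 0.954). Ventral midbrain replicate 4 and the alar plate libraries of E11.5 were among those that matched another region better.

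The alpha rows of the clustered protocadherins were also higher at E14.5 than at E11.5, and their level rose relative to that of the gamma rows. Exons listed with the same start and end in each annotated row had 59, 89 and 2712 bases for alpha and 59 and 89 bases for gamma. Exons whose listed ends differ between rows are not among these, so the shared length may be larger. The lowest alpha row held a median of 88.7% of the reads of the highest alpha row, and the lowest gamma row 75.5% of the highest gamma row. The median row of a cluster is therefore given as its level. In replicate 3 of the alar plate at E12.5 the lowest row held 97.9% (alpha) and 92.1% (gamma), the highest shares of any library. Its beta rows summed to 16.6 RPKM, against 35.0 and 37.0 RPKM in the other replicates of its group. What sets this library apart was not tested. From E11.5 to E14.5 the alpha level averaged 4.04, 12.1, 15.2 and 21.5 RPKM, the gamma level 38.5, 79.3, 84.6 and 75.7 RPKM, and the sum of the beta rows 12.4, 35.4, 36.3 and 45.6 RPKM.

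Between E14.5 and E11.5, 14 of 15 alpha rows were called higher, with differences of 0.99 to 2.22 over all rows. The gamma rows differed by 0.93 to 1.09, with 1 of 22 called. Of all tested genes 8.15% were called higher, but rows of a cluster share reads, so the row counts are not of separate genes. The alpha row below the limit was Pcdha4-g, which RefSeq lists as a transcript running from the alpha into the gamma cluster. The ratio of alpha to gamma levels had a geometric mean of 0.273 at E14.5 and 0.149 at E12.5, a log2 difference of 0.88, and the 15 libraries of E14.5 did not overlap the 15 of E12.5. A permutation test gave p = 2e-05, the smallest that the permutations drawn can give, and 8e-05 after adjustment over the 8 such tests, two-sided. It shuffled libraries without regard to region, and the name prefixes of these stages differ, so stage and batch were not separated. This ratio was chosen after the values were seen. Within a region, 3 libraries against 3 gave an exact p of 0.1, the smallest possible.

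By region, each of the 15 alpha and 22 gamma rows was higher in the ventral than in the dorsal midbrain at an adjusted p below 0.05. None reached a log2 difference of 1, and 25.8% of all tested genes were higher at any size. As rows of a cluster share reads, they are not separate results. At E14.5 the alpha level was 27.2 ± 0.998 RPKM in the ventral midbrain and 12.6 ± 1.84 RPKM in the dorsal midbrain, and the gamma level 83.5 ± 1.04 RPKM in the ventral midbrain and 60.9 ± 4.87 RPKM in the dorsal midbrain (SD, n = 3 each). Over the stages, the median alpha row was 0.85 higher in the ventral than in the dorsal midbrain and the median gamma row 0.61 higher. The gamma row with the most reads was Pcdhgc3 in 60 of 60 libraries, with a median of 32.5% more reads than the lowest row, and the alpha row with the most was Pcdhac2 in 55 of 60 (12.7% more). Both are C-type isoforms, whose first exons lie nearest to the shared exons and, unlike the others, are not chosen at random. The other C-type rows did not stand out in this way: the median excess was 5.58% for Pcdhgc4, below the 7.92% of Pcdhgb6, 2.56% for Pcdhac1 and 0% for Pcdhgc5.

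**Figure D5:**
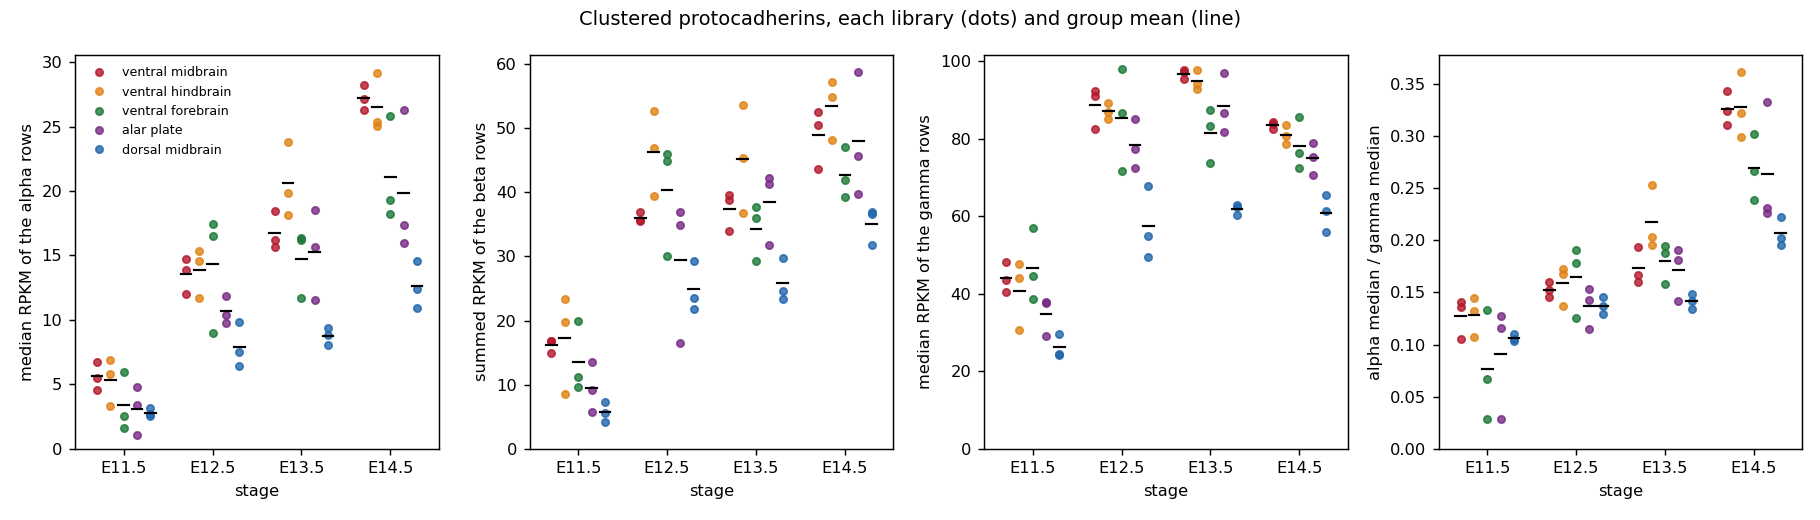
Clustered protocadherins in each library (dots, coloured by region) at 4 stages, with lines at group means: the median alpha row, the sum of the beta rows and the median gamma row (RPKM), and the ratio of alpha to gamma. The ratio has a geometric mean of 0.273 at E14.5 and 0.149 at E12.5, and the libraries of the 2 stages do not overlap.

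The 12 tested catenins and cytoplasmic partners had median differences of -0.07 to 0.02 in the 5 comparisons of a region with the others, and each was uncalled there. Their summed level was highest in the dorsal midbrain, with a mean of 939 RPKM and libraries from 807 to 1023 RPKM, against means of 625 RPKM in the ventral midbrain (549 to 758), 610.1 RPKM in the ventral hindbrain (534 to 737), 656 RPKM in the ventral forebrain (560.5 to 817) and 679 RPKM in the alar plate (567 to 818). The dorsal midbrain libraries overlapped those of the ventral forebrain and alar plate and not those of the ventral midbrain and ventral hindbrain. The most abundant of the list, Ctnnb1 (beta-catenin, which binds the classic cadherin tail and also carries Wnt signals), was 0.91 ± 0.05 higher in the dorsal midbrain than in the other regions (adjusted p = 1.71e-18), just under the limit of 1. Between E14.5 and E11.5, Ctnnd2, the neural delta-catenin, was higher (1.36 ± 0.09), as was Ctnna2, the alpha-catenin of neurons (1.32 ± 0.12), and Ctnna1, the alpha-catenin of epithelia, was lower (-1.50 ± 0.10). Of 12 tested genes of the wider cadherin superfamily, Clstn2, a calsyntenin of synapses, was 2.25 higher in the ventral than in the dorsal midbrain. Ret, a receptor kinase with cadherin-like repeats, was 2.07 higher and Celsr1, a cadherin of planar cell polarity, 1.17 higher. The rest of the superfamily list was uncalled in that comparison. Among 12 tested regulators of the clustered protocadherins, Dnmt3b, a DNA methyltransferase that marks promoters of the clusters in the early embryo, was lower at E14.5 (-1.09 ± 0.08), and the 11 others were uncalled.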

How the data were processed

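RNA of 60 mouse embryonic brain samples was sequenced, with TruSeq libraries and RNeasy columns per the labels' protocols. Per the submitters' processing notes, Bowtie was the aligner, with no version named, and mm10 the build. Which counter, annotation, filters and strand setting were used is not given in the sources read. The authors deposited RPKM values, normalised to transcript length and to assigned reads. Multiplied by length, 100.0% of values were whole reads within 0.001 of a read. A member with 0 reads could have had up to 3, which is 0.127 to 3.06 reads per 1000000, counting error only.

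The test was limma 3.58.1 (R 4.3.3) on log2(RPKM + 1) with a trended prior variance, in 1 fit of 20 group means over 60 libraries, for the 14692 genes that reached 1 RPKM on average in some group. Contrasts were averaged over stages or regions. It was tested on simulated data. The alternatives were a pseudocount of 0.1, no filter, scaling by trimmed means, limma-voom on recovered reads, a replicate block, subsets of stages and leaving out libraries. A count test by another package had been planned for a file of counts and was replaced by limma-voom.

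Any member may be named. Called members with the largest differences, up to 10 per direction, have their values given, and from each accompanying list up to 4 genes with the smallest adjusted p. Members, subfamilies and lists were chosen with earlier results of these data known. Positions are from GENCODE vM21, upstream sequences from RefSeq GRCm38.p6, where 22 of the 93 members had an entry.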

Additional observations from a re-analysis of the deposited data

Results flagged for a closer look

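Cdh20, a type II cadherin, changed between E11.5 and E14.5 by another amount in the ventral midbrain than in the mean of the other regions, by a test of the difference itself. The ventral midbrain's log2 change exceeded the mean change of the other 4 regions by 1.445 ± 0.35 (limma's adjusted p = 0.0094, 3 libraries per group). Within each region the change was 0.81 in the ventral midbrain, -0.06 in the ventral hindbrain, -0.52 in the dorsal midbrain, -0.54 in the ventral forebrain and -1.43 in the alar plate. Libraries of E11.5 spread widely. Cdh20 had 2.05, 1.26 and 2.38 RPKM in the ventral midbrain and 6.43, 1.49 and 5.10 RPKM in the alar plate. The ventral forebrain had 0.608, 5.65 and 2.83 RPKM. Among these, the alar plate libraries, ventral midbrain replicate 4 and ventral forebrain replicates 2 and 4 matched another region better. The call was lost with limma-voom (2.38 ± 0.62, adjusted p = 0.0506), without ventral midbrain replicate 4 of E11.5 (1.27 ± 0.38, adjusted p = 0.0551) and with E12.5 as the early stage (0.11, adjusted p = 0.954). With E12.5 as the early stage, Cdh23 was called in its place (1.15 ± 0.23, adjusted p = 0.0106).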

How the results depend on the processing

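Counts are of called members among the 49 that share no exons. Leaving out each library in turn gave 2 to 2 members for the ventral midbrain, 3 to 4 for the dorsal midbrain, 0 to 0 for the ventral forebrain, 0 to 2 for the ventral hindbrain, 0 to 1 for the alar plate, 8 to 9 for ventral against dorsal midbrain, 20 to 22 for E14.5 against E11.5 and 0 to 1 for the difference in that change. The hindbrain count reached 2 without ventral hindbrain replicate 2 of E11.5, 1 of E12.5 or 2 of E14.5, and the alar plate count 1 without its replicate 2 of E11.5 or of E12.5. The difference in change lost its single call without ventral midbrain replicate 4 of E11.5.

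A pseudocount of 0.1, which weighs low genes more, gave 9 for the dorsal midbrain, 1 for the ventral forebrain, 6 for the ventral hindbrain, 1 for the alar plate, 13 for ventral against dorsal midbrain, 40 for the stages and 2 for the difference in change. With limma-voom on recovered reads, chosen after seeing the data in place of the planned edgeR test (not run, since the deposited values are no counts), the counts were 7 for the ventral midbrain, 10 for the dorsal midbrain, 1 for the ventral forebrain, 6 for the ventral hindbrain, 2 for the alar plate, 13 for ventral against dorsal midbrain, 40 for the stages and 0 for the difference in change. In both of these settings the 40 for the stages were 38 higher and 2 lower. Of all tested genes, limma-voom called 5.02% for the ventral hindbrain, 1.74% for the ventral forebrain and 1.78% for the alar plate. The test on log2(RPKM + 1) called 1.57%, 0.776% and 0.619%. Shares under the other settings and comparisons are not given here, and a higher count there is not a result about the members. Scaling by trimmed means gave 1 for the ventral hindbrain, 4 for the dorsal midbrain and 9 for ventral against dorsal midbrain. Without E11.5, and likewise with only E12.5 and E13.5, the ventral hindbrain had 3 and the alar plate 1. With only E13.5, a choice made after seeing the data, the dorsal midbrain had 7, the ventral forebrain 1 and the alar plate 1. With E12.5 in place of E11.5, also chosen after seeing the data, the stages had 0. The cause was not tested. The fit without the 14 libraries that match another region better could be made only for ventral against dorsal midbrain, where it gave 9.

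Over the 50 named results and all settings, 3287 of 3334 values kept direction and call, 47 kept direction and lost the call, 37 of them with E12.5 in place of E11.5, and 0 reversed. Median correlations of deviations between same-numbered replicates were -0.003, 0.252, 0.199 and 0.082 from E11.5 to E14.5, against -0.002, -0.103, -0.085 and -0.057 between replicates of different number. Not every same-numbered pair was over 0.1, so the numbers were not taken as pairs, though from E12.5 on the higher values hint, from the data and not the design, at something shared. A replicate block moved the stage count to 20, with Pcdhb18 lost (0.97), and changed no other count.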
